A study of Mus musculus with 12 samples.

Results

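The 8 genes described here belong to the tumour necrosis factor (TNF) family and were measured in hippocampal microglia of mice at postnatal day 14 (P14) and postnatal day 28 (P28). They were taken by name from a table of 545 immune genes: the ligands Tnf, Tnfsf10 (TRAIL) and Tnfsf12 (TWEAK), and the receptors Tnfrsf1b (TNF receptor 2), Tnfrsf14 (HVEM), Ltbr (the lymphotoxin beta receptor), Fas and Cd40. Of these 8 genes, 6 were above background and could be tested, and Fas and Cd40 were not. The samples were sorted hippocampal microglia of male Balbc mice raised under control conditions, 6 at P14 and 6 at P28, every animal from a separate litter. No genotype, transgene or drug is given in the labels, and stressed animals of the study were not analysed here. The study asks how microglia mature in the developing hippocampus, and the only comparison of these samples is P28 against P14.

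TNF family ligands are mostly trimeric membrane proteins that can be shed, and their receptors signal by recruiting TRAF adaptors or, in the death receptors, adaptors with a death domain. In the brain microglia are a main source of TNF, which acts on synapses and on microglia themselves as well as in inflammation. TNF receptor 2 is the TNF receptor typical of myeloid and other immune cells, and it leads to NF-kB activation without a death domain.

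The assay was a NanoString nCounter immune panel for mouse, in which colour-coded probes bound to target RNA are counted singly without sequencing. Levels are given as scaled counts, raw counts divided by a factor from 6 reference genes of the panel, so every level and fold is relative to those genes. A gene was above background in a sample if its raw count was over that sample's threshold, set 2 SD over the average of 8 negative-control probes. Genes above it in at least 40% of the 12 samples were tested, which left 366 of 545. Totals over the 545 genes lay between 356398 and 1316430 counts at P14 and between 1025196 and 1534665 at P28. Microglial identity was plain in the counts, since 8 of 8 marker genes of microglia, among them Csf1r, Cx3cr1 and Trem2, were above background in all 12 samples. Of 12 T cell genes on the panel 4 could be tested (Cd3eap, Cd5, Cd8b1 and Lck). Cd3e was above background in 0 of 12 samples, Cd3d in 3, Cd5 in 9, Cd8b1 in 10 and Lck in 12. The positive-control probes, which are added in equal amount to each sample, differed with age: their geometric means were 541.8 to 651 counts in the P14 samples and 1069 to 1235 in the P28 samples. The labels name no cartridge or run, so a difference between runs and the difference between ages cannot be told apart there. P14 samples 4 and 5 differed from the rest of their age in many genes, as described with the receptors, and main values that moved by much without them are also given without them. The choice of these 2 samples came from these same data, so p-values without them are a description and no test.

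The sequence just before the transcription start is shown for 3 of the genes: Tnf, which had the largest rise among the 6 tested genes, and Tnfrsf1b and Tnfrsf14, 2 receptors that shared a pattern between samples, described below. Each is the 250 bases before the RefSeq start in GRCm38.p6, read 5′ to 3′ on the strand of the gene. Capitals mark matches, on either strand, to TATAAA, to GGG and CC with any 5 bases between them (a loose NF-kB motif) or to GAAA, any 2 bases and GAAA (a loose interferon response motif).
Tnf, chr17:35202008-35202257, minus strand: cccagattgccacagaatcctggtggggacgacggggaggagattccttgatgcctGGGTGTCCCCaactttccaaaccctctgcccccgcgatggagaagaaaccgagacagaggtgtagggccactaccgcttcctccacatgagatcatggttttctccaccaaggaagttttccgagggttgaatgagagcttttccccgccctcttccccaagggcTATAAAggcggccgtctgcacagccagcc
Tnfrsf1b, chr4:145246871-145247120, minus strand: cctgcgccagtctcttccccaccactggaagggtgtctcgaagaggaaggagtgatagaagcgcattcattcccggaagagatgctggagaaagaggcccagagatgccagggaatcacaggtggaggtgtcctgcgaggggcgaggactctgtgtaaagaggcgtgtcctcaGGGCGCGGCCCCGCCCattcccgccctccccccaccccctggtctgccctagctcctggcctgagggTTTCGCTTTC
Tnfrsf14, chr4:154928078-154928327, minus strand: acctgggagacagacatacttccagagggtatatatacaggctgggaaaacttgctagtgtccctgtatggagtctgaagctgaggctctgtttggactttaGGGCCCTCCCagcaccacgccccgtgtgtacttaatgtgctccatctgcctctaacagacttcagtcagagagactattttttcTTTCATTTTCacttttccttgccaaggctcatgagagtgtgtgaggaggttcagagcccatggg
Tnf carried the TATAAA letters, 29 to 24 bases before its start, and those letters were found in 12.4% of the 32851 RefSeq windows of 250 bases. It also held the loose NF-kB motif on both strands at the same place, 194 to 185 bases before the start; 45.8% of the windows held that motif. Tnfrsf1b and Tnfrsf14 each had 1 match to the loose interferon response motif, 10 to 1 and 64 to 55 bases before the start, against 2.98% of all windows. The windows of Tnf, Tnfsf10, Ltbr and Fas had 0 matches to it. The sample pattern of the 2 receptors was shared by 172 of the 366 tested genes in all, and the share of those with this motif was not analysed. In Tnfrsf1b, 3 matches to the loose NF-kB motif lay between 77 and 62 bases before the start and overlapped, and Tnfrsf14 had this motif on both strands 148 to 139 bases before its start. The motif was not particular to the genes shown: Ltbr had 1 match and Fas 3, while Tnfsf10 had 0. These matches describe letters and not bound sites, and no binding was measured here.

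Among the ligands, Tnf and Tnfsf12 rose between P14 and P28 and Tnfsf10 fell. Of the 6 tested genes, 2 rose (Tnf and Tnfsf12), 2 fell (Tnfsf10 and Ltbr) and 2 did not pass the test (Tnfrsf1b and Tnfrsf14). The background over all 366 genes was 30.6% called with the FDR held at 0.05 (16.7% rose and 13.9% fell), so calls went both ways in the family and in the panel. The balance of the panel depended on the scale: with the 6 reference genes 61 rose and 51 fell, against 93 and 36 under the authors' scaling factors, 89 and 42 with 14 reference genes, 50 and 74 without Polr1b, 51 and 96 with total counts, and 8 and 127 with positive controls alone. It was 89 and 26 with limma on the deposited values and 68 and 90 without P14 samples 4 and 5. The median log2 fold change was -0.094 over the 6 genes and 0.0026 over the 366. In such bulk samples fewer cells of a type and less RNA per cell cannot be told apart. Calls are from edgeR's quasi-likelihood test with Benjamini-Hochberg adjustment over the 366 genes.

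Tnf, the founding cytokine of the family, had between 455 and 946 scaled counts at P14, with a median of 667. At P28 it had between 1032 and 1397, with a median of 1253. The lowest P28 sample, number 135, was above the highest P14 sample, number 25, so the ages did not overlap. The means were 659.8 ± 177 and 1221 ± 154 (SD, n = 6 each), a log2 fold change of 0.88 ± 0.17 (SE; adjusted p = 0.000945, edgeR) or 1.85-fold, with a 95% interval of 1.44 to 2.36. When counts were scaled to the positive controls alone, the difference in Tnf was 0.14 on the log2 scale and did not pass (adjusted p = 0.730, edgeR). That scaling moved the median of all 366 genes to -0.74. In the authors' deposited table the fold for Tnf is 2.02.

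Tnfsf12 encodes TWEAK, a ligand linked to tissue repair and to NF-kB signalling. It ranged from 487 to 636 scaled counts at P14 (median 601) and from 630 to 1108 at P28 (median 761). The ages overlapped only where P28 sample 118, at 630, lay under P14 sample 81, at 636. The mean rose from 576 ± 62.5 to 804 ± 168 (SD, n = 6 each), a log2 fold change of 0.48 ± 0.14 (adjusted p = 0.0160, edgeR). This call depended on the scale: adjusted p was 0.0537 with TMM, 0.0563 with DESeq2 size factors, 0.0621 without the reference gene Polr1b and 0.0841 with total counts (edgeR in each), and with positive controls alone the difference turned to -0.23. The authors' deposited table gives Tnfsf12 a fold of 1.52 and a p-value of 0.0058.

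Tnfsf10 encodes TRAIL, a ligand that can trigger cell death through receptors with a death domain. Its P14 values were narrow, from 156 to 192 scaled counts with a median of 168. At P28 they ran from 82.0 to 127 with a median of 103. Each P28 sample was under each P14 sample. The mean fell from 170 ± 12.8 to 104 ± 16.7 (SD, n = 6 each), a log2 fold change of -0.70 ± 0.13 (adjusted p = 0.000945, edgeR), which is a P14 level 1.63 times that of P28. With positive controls alone the difference in Tnfsf10 was -1.41 (adjusted p = 0.00718, edgeR). Raw counts of Tnfsf10 were modest, 70 to 214, but above the background threshold in all 12 samples. In the authors' deposited table its fold is 0.67 with a p-value of 0.0001.

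**Figure D1:**
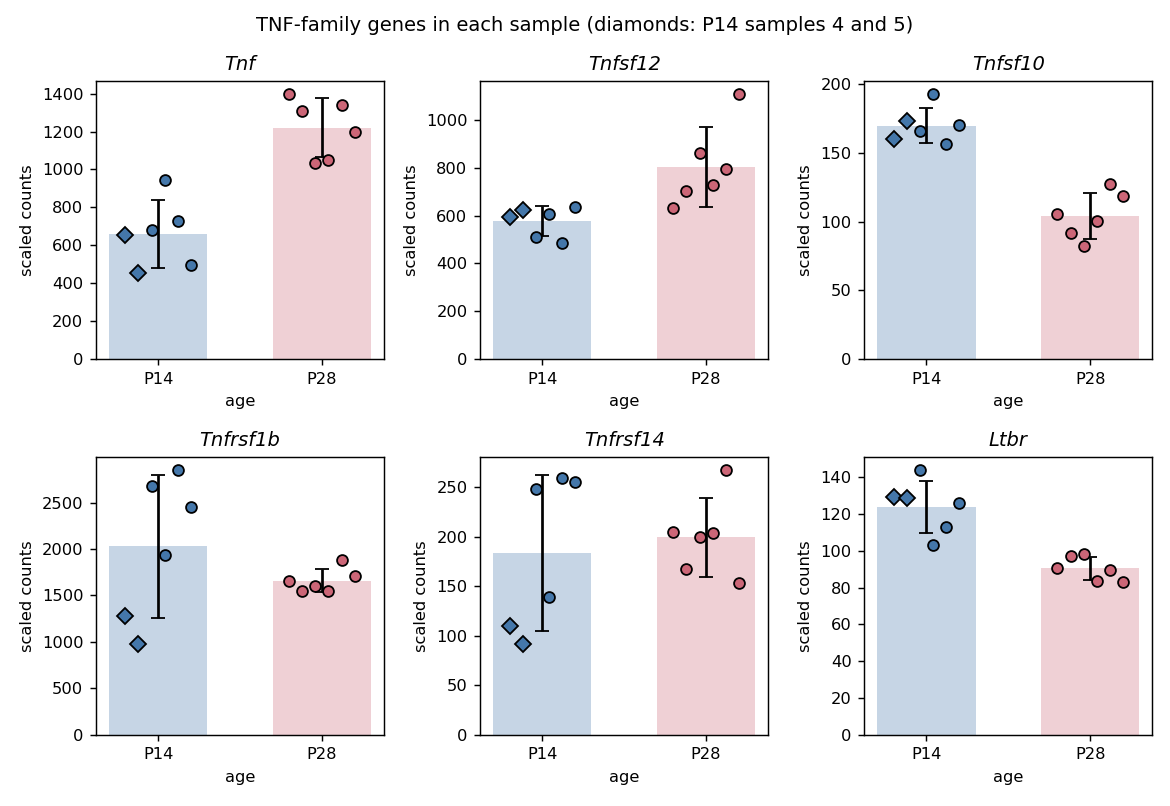
Scaled counts (linear axis from 0) of the 6 tested TNF-family genes at P14 and P28; points are samples, bars are means and error bars are SD (n = 6 each), and diamonds are P14 samples 4 and 5. Tnf, Tnfsf10 and Ltbr do not overlap between the ages, while the P14 points of Tnfrsf1b run from 979 to 2851 around narrow P28 values of 1549 to 1877.

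Among the receptors, Ltbr fell. The lymphotoxin beta receptor binds the lymphotoxin heterotrimer and LIGHT and activates the noncanonical arm of NF-kB. Ltbr had between 103 and 144 scaled counts at P14 (median 127) and between 83.0 and 98.2 at P28 (median 90.2), and the ages did not overlap. Its mean fell from 124 ± 14.1 to 90.4 ± 6.49 (SD, n = 6 each), a log2 fold change of -0.45 ± 0.12 (adjusted p = 0.00850, edgeR) with an interval of -0.71 to -0.20. With positive controls alone it was -1.17 (adjusted p = 0.0142, edgeR). With Tnf and Tnfsf10, Ltbr made 3 of the 6 tested genes without overlap between the ages, against 20.8% of the 366 genes. The authors' deposited table gives Ltbr a fold of 0.79 and a p-value of 0.0042.

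Tnfrsf1b and Tnfrsf14 did not pass the test, and both varied widely among the P14 samples. Tnfrsf1b, a high-affinity receptor for TNF, averaged 2029 ± 769 scaled counts in the younger and 1658 ± 124 in the older mice (SD, n = 6 each), with a log2 fold change of -0.29 ± 0.22 (adjusted p = 0.350, edgeR) and an interval of -0.77 to 0.18. The spread of Tnfrsf1b relative to its mean was 37.9% at P14 and 7.50% at P28. Its low P14 values were 979 in sample 5 and 1277 in sample 4, and the other P14 samples had 1931 to 2851, above all P28 samples, which had 1549 to 1877. With P14 samples 4 and 5 left out, Tnfrsf1b was lower at P28 by a log2 fold change of -0.58 ± 0.11 (adjusted p = 0.00104, edgeR). Those 2 samples held the lowest P14 values of Tnfrsf1b, so its p-value without them is no test of a fall. With positive controls alone and all samples Tnfrsf1b was at -1.15 (adjusted p = 0.0308, edgeR). With P14 samples 4 and 5 left out, the differences of Tnf (0.78), Tnfsf12 (0.52), Tnfsf10 (-0.71) and Ltbr (-0.43) still passed.

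Tnfrsf14, the HVEM receptor shared by LIGHT and by the inhibitory receptor BTLA, averaged 184 ± 78.6 scaled counts in the younger and 199 ± 39.6 in the older mice (SD, n = 6 each). Its log2 fold change was 0.10 ± 0.26 (adjusted p = 0.794, edgeR), and the interval of -0.45 to 0.66 leaves room for changes of either sign. Tnfrsf14 was lowest in the same P14 samples as Tnfrsf1b, at 91.5 in sample 5 and 109 in sample 4, followed by 139 in sample 25, while P14 samples 16, 61 and 81 had 248 to 259. Its sign was not fixed: it was -0.0081 without P14 sample 4, -0.023 without P14 sample 5, -0.17 without both and -0.72 with positive controls alone, and none of these passed.

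This sample pattern was not particular to the 2 receptors. Of the 366 tested genes, 172 were lower in P14 samples 4 and 5 than in each other P14 sample and 48 were higher than in each. Of the 8 reference genes of the panel that were not used for scaling, 4 were lower and 2, Ppia and Rpl19, were higher in the same way. Polr2a, the large subunit of RNA polymerase II, had 663 in P14 sample 5 and 748 in P14 sample 4 against 1252 to 2234 in the other P14 samples. Those 2 samples also had the lowest totals, and the part of the lower totals in the receptor values was not tested. Tnf, Tnfsf10, Tnfsf12 and Ltbr did not have this pattern: in Ltbr, samples 4 and 5 had 129 and 129 scaled counts within a P14 range of 103 to 144. In Tnf, sample 5 had the lowest P14 value, 455, while sample 4 had 653, within the 494 to 946 of the other P14 samples.

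Fas and Cd40 were not detected above background in any sample. Fas, the receptor for Fas ligand and a death receptor, had raw counts of 1 to 7 at P14 and 3 to 11 at P28. Cd40, a costimulatory receptor of antigen-presenting cells that is low on resting microglia, had 8 to 11 at P14 and 6 to 15 at P28. The background threshold of the samples lay between 12.9 and 32.0 counts at P14 and between 24.8 and 33.4 at P28. No fold is given for either gene, and levels below these thresholds could not be measured.

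**Figure D2:**
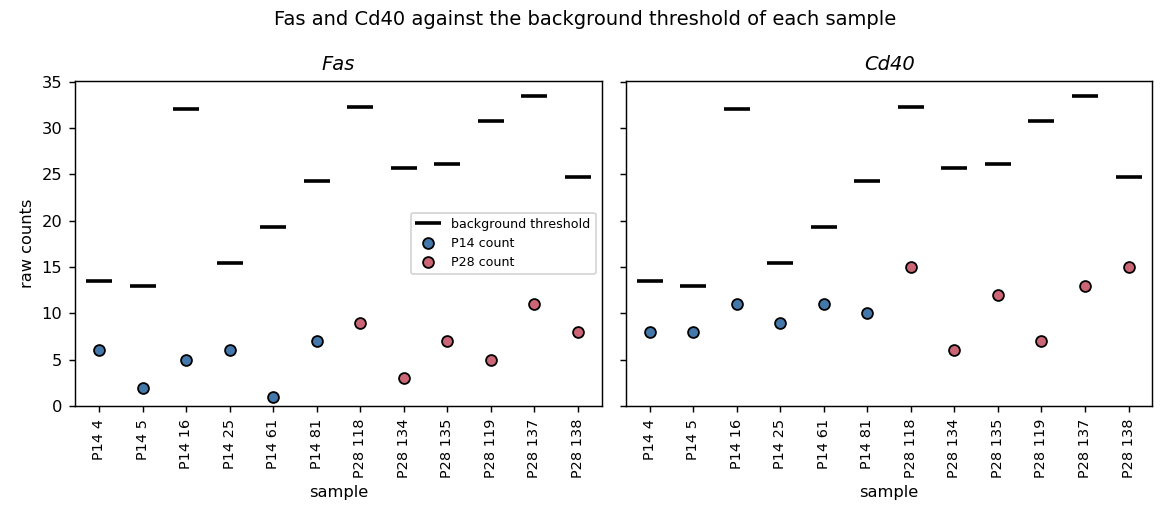
Raw counts of Fas and Cd40 in each of the 12 samples (points) with the background threshold of that sample (black bars, mean plus 2 SD of the 8 negative probes). Every point is under its bar; the highest count is 11 for Fas and 15 for Cd40.

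**Figure D3:**
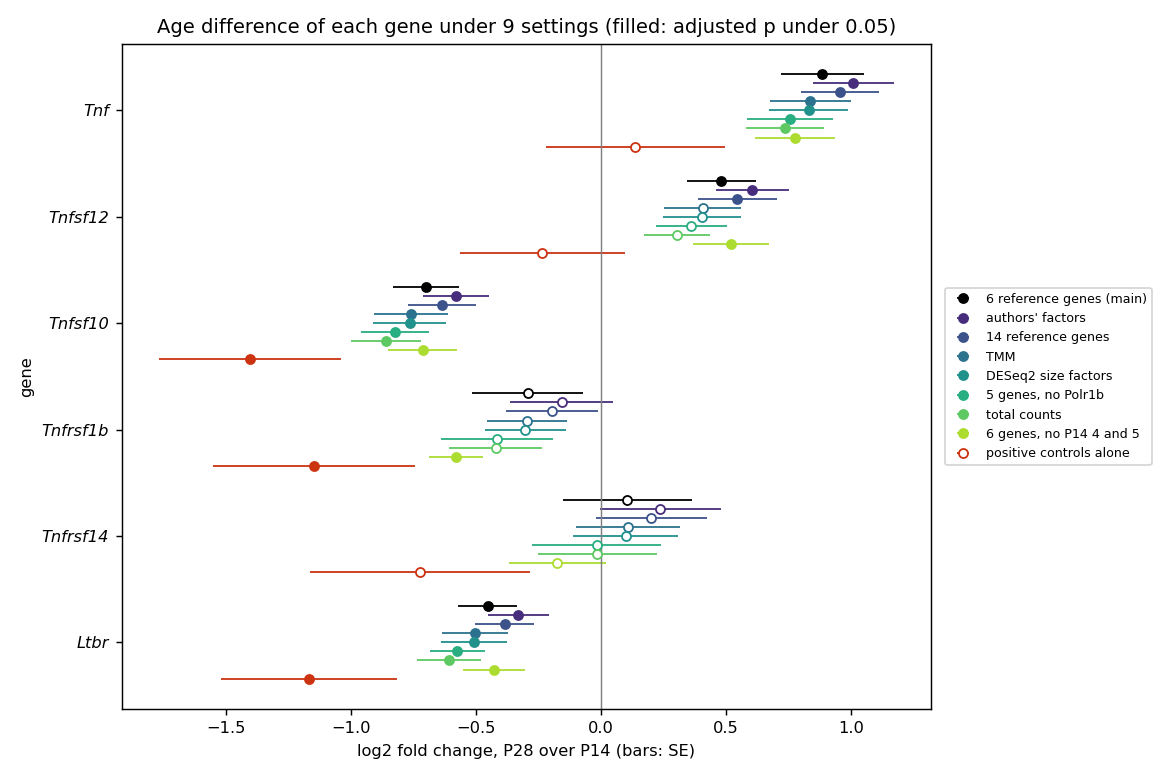
Log2 fold change of P28 over P14 (horizontal axis, bars are SE) for the 6 tested genes under the main scaling and 8 alternatives; filled points have an adjusted p under 0.05. Tnfsf10 and Ltbr lie below 0 and filled throughout, Tnf loses its call with positive controls alone, and Tnfsf12 loses it in 5 of the settings shown.

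Ratios between genes of the family within a sample need no scaling, so they were compared as a description, without a test. The ratio of Tnf to Tnfsf10 raw counts ran from 2.63 to 4.92 in the P14 samples and from 10.1 to 14.2 in the P28 samples. The mean log2 ratio differed by 1.64 between the ages, which is 3.11-fold, and each P28 ratio was above each P14 ratio. A count of 1 probe is not comparable in level with that of another probe, but the change of their ratio is. The ratio of Tnf to its receptor Tnfrsf1b ran from 0.202 to 0.511 at P14 and from 0.644 to 0.842 at P28, again without overlap. The 3 high P14 ratios of Tnf to Tnfrsf1b were 0.511 in sample 4, 0.490 in sample 25 and 0.465 in sample 5, and the other P14 samples had 0.202 to 0.256. Between the ligands Tnfsf10 and Tnfsf12 the ratio was 0.267 to 0.325 at P14 and 0.0950 to 0.167 at P28.

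Of the 15 pairs among the 6 genes, 5 had ratios that did not overlap between the ages, against 21.7% of the 66795 pairs of tested genes; the pairs share genes and are not independent. Besides those of Tnf with Tnfsf10, of Tnf with Tnfrsf1b and of Tnfsf10 with Tnfsf12, these were the ratios of Tnf and of Tnfsf12 to Ltbr, with log2 differences of 1.37 and 0.92. The ratio of Tnfrsf1b to Tnfrsf14 stayed in a narrow band among the P14 samples, 9.63 to 13.9, although each receptor alone varied more than 2-fold there, and it was 7.03 to 11.2 at P28. This was not the narrowest: the SD of its log2 ratio at P14 was 0.18, against 0.13 for Tnfsf10 over Tnfsf12. Many other tested genes were also low in P14 samples 4 and 5, and the width was not compared over all pairs of tested genes. Because these ratios use raw counts, they show that the genes changed unequally and not which of them changed.

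**Figure D4:**
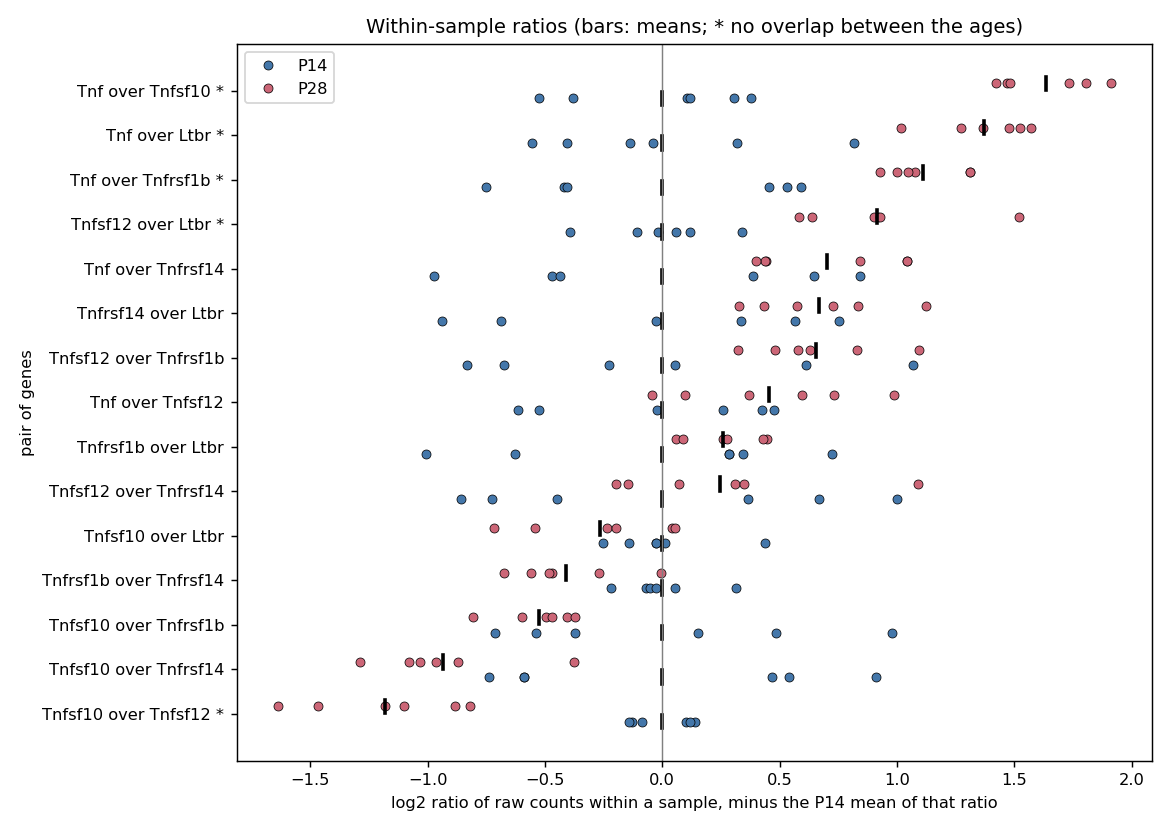
Log2 ratio of raw counts within each sample for the 15 pairs of tested genes, shown minus the P14 mean of that pair; points are samples and short bars are means of 6. In the 5 pairs with an asterisk the P14 and P28 points do not overlap, led by Tnf over Tnfsf10 with a difference of 1.64.

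The ligands and binding partners of these receptors were mostly near background. Of 12 partner symbols listed, 2 of them for the same Fas ligand gene, 7 were in the table and 3 were tested. Of the 3, 0 passed in edgeR (0 also at an unadjusted p under 0.05, and 0 by DESeq2 and limma). Ltb, which pairs with lymphotoxin alpha to bind Ltbr, went from 117 ± 10.7 to 126 ± 19.4 scaled counts (0.11 ± 0.13, adjusted p = 0.585, edgeR). Cd160, a receptor for HVEM, averaged 113 ± 61.3 scaled counts in the P14 samples and 100.04 ± 11.4 in the P28 samples (-0.21 ± 0.33), and it was lower at P28 without P14 samples 4 and 5 (-0.58 ± 0.14, adjusted p = 0.00675, edgeR). Cd40lg, the ligand of Cd40, averaged 35.0 and 28.4 (-0.34 ± 0.23), and was also lower without those 2 samples (-0.55, adjusted p = 0.0497, edgeR). Those 2 samples held the lowest P14 values of Cd160 and of Cd40lg, so neither p-value without them is a test of a fall. Fasl and Lta were above background in 0 of 12 samples, Tnfsf14 (LIGHT) in 2 and Btla in 1. Tnfrsf1a, Tnfrsf10b, Tnfrsf11b and Tnfrsf12a, other receptors of the 3 ligands, were listed but not in the table under these symbols. They could not be tested.

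In the genome Tnf lies between Ltb and Lta, as the order of protein-coding genes in GRCm38.p6 shows. Of the 3, Tnf rose, Ltb did not pass and Lta could not be tested; Tnf and Ltb were not compared by a test. Tnfrsf8 follows Tnfrsf1b directly on its chromosome and had a log2 fold change of -0.015 ± 0.20 (adjusted p = 0.972, edgeR). Cd27, with 1 protein-coding gene between it and Ltbr, had 0.29 ± 0.30 (adjusted p = 0.528, edgeR), and -0.077 without P14 samples 4 and 5.

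Of 10 tested genes among other members of the superfamily, Tnfsf13b (the B cell survival factor BAFF, 2.36 ± 0.17) and Tnfrsf11a (the receptor RANK, 1.70 ± 0.28) rose, 0 fell and 8 did not pass. Their changes were larger than that of Tnf, and the median of the 10 genes was 0.16. Without P14 samples 4 and 5, 3 rose and 0 fell, where 158 of the 366 tested genes were called. Tnfrsf11a, like Tnfrsf1b, was lowest in P14 samples 5 and 4, at 148 and 167 scaled counts against 299.5 to 489 in the other P14 samples, and with positive controls alone it was at 0.86 and did not pass (adjusted p = 0.109, edgeR). Tnfrsf4 (OX40), a costimulatory receptor of T cells, went from 34.0 ± 6.22 to 48.1 ± 18.4 scaled counts (0.50 ± 0.22, adjusted p = 0.102, edgeR).

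Of 12 tested receptor adaptors and death-machinery genes, 0 rose, 2 fell and 10 did not pass, with a median of -0.048. Traf2, the adaptor that TNF receptor 2 recruits, fell from 1200 ± 212 to 795 ± 47.8 (SD, n = 6 each; -0.60 ± 0.12, adjusted p = 0.00217, edgeR), as did Bax, a pore-forming activator of apoptosis (-0.94 ± 0.11, adjusted p = 1.46e-05, edgeR). Traf3, which restrains the noncanonical NF-kB arm used by Ltbr and Cd40, had close values at both ages, 765 ± 21.6 and 716 ± 39.1 (-0.094 ± 0.084). Fadd, the death-domain adaptor of Fas and of the TRAIL receptor, had 0.39 ± 0.21 and Casp8, the caspase it recruits, 0.10 ± 0.18, and neither passed. Without P14 samples 4 and 5, which were low in both genes, Fadd was at 0.14 and Casp8 at -0.14, again without a call, and 1 gene of the list rose and 2 fell.

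Of 14 tested genes of the NF-kB and MAP kinase relay, 2 rose, 2 fell and 10 did not pass, with a median of 0.0073. Rela, the main transactivating subunit, rose (0.47 ± 0.15, adjusted p = 0.0225, edgeR), and so did Nfkbiz, which encodes a nuclear IkB protein (0.73 ± 0.18). Relb, the subunit of the noncanonical arm downstream of Ltbr, fell from 105 ± 25.6 to 61.3 ± 11.4 (-0.78 ± 0.18, adjusted p = 0.00397, edgeR), and Nfkb1 fell as well (-0.68 ± 0.18, and -0.90 without P14 samples 4 and 5). Without P14 samples 4 and 5 the relay counts were 1 higher and 6 lower, while those of all 366 tested genes were 68 higher and 90 lower. There Rela did not pass (0.36, adjusted p = 0.0625, edgeR) and the feedback inhibitor Tnfaip3 (A20) was lower (-0.73 ± 0.13, adjusted p = 0.000851, edgeR), against -0.48 ± 0.21 with all samples. The 2 samples left out held the lowest P14 values of Tnfaip3, so its p-value without them is no test of a fall. With positive controls alone Rela was at -0.32 and Nfkbiz at 0.051, and neither passed.

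Of 10 tested genes that TNF is known to induce, Il1b rose and Relb fell, and 8 did not pass, with a median of -0.085. Relb, Nfkbia, Nfkb2 and Tnfaip3 are also in the relay list, so the 2 lists are not separate and the fall of Relb is counted in both. Il1b, the cytokine interleukin 1 beta, rose from 69.9 ± 13.4 to 103 ± 13.7 (0.54 ± 0.15, adjusted p = 0.0121, edgeR), but was at -0.22 with positive controls alone. Nfkbia, the classical inhibitor of NF-kB and a direct target of it, had 0.38 ± 0.16 (adjusted p = 0.0879, edgeR), and Icam1, an adhesion molecule, 0.14 ± 0.10. Ccl2 (-0.55 ± 0.25) and Cxcl10 (-1.48 ± 0.65), chemokines that TNF can induce, did not pass either, but Cxcl10 was lower without P14 samples 4 and 5 (-1.89 ± 0.63, adjusted p = 0.0298, edgeR). Those 2 samples held its lowest P14 values, so that p-value is no test of a fall. The 17 listed genes in the table included 7 that were not tested, among them Il6, Ptgs2 and Vcam1, which were above background in 4, 1 and 3 of 12 samples. The counts of this list without P14 samples 4 and 5 were 1 higher and 4 lower, where 158 of all 366 tested genes were called, 68 higher and 90 lower.

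**Figure D5:**
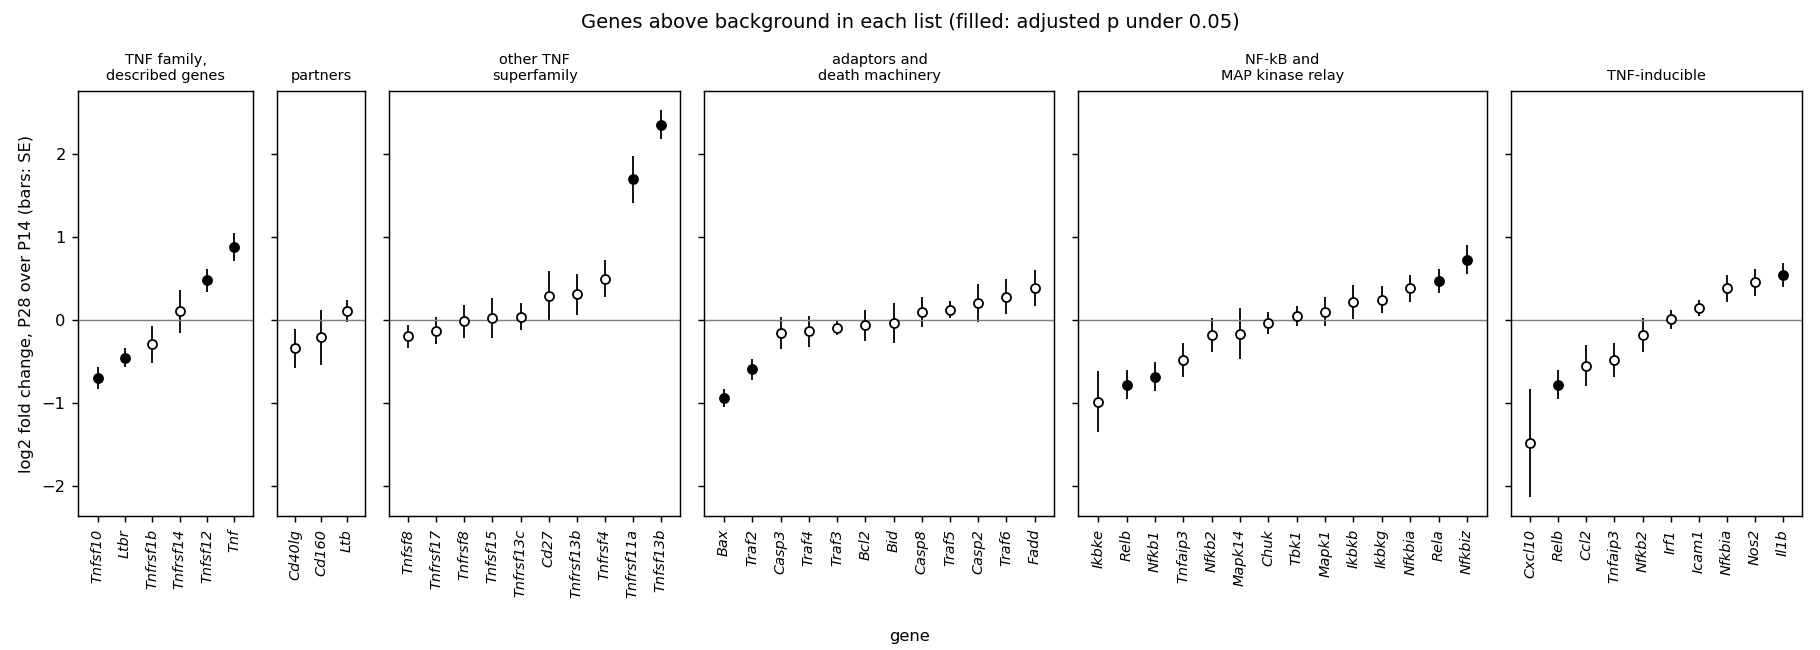
Log2 fold change of P28 over P14 (vertical axis, bars are SE) for the tested genes of the described set and of 5 lists; filled points have an adjusted p under 0.05. Filled points number 0 of 3 partners, 2 of 10 other superfamily genes, 2 of 12 adaptors, 4 of 14 relay genes, 2 of 10 inducible genes and 4 of the 6 described genes, where 30.6% of the 366 tested genes were called. The relay and inducible lists share genes, and Relb is counted in both.

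By closeness of the centred log2 profile over 12 samples, the genes most like Tnf were Cd83, a maturation marker of dendritic cells (root-mean-square distance 0.27), and Cd274, which encodes PD-L1 (0.27). Nearest to Tnfsf10 were Il15 (0.18) and Emr1, the F4/80 antigen (0.20), both lower at P28. A near profile to Ltbr was that of Hfe (0.13). Tnfsf12 was nearest to Tlr9 (0.17) and Fkbp5 (0.17). A near profile to Tnfrsf1b was that of Tnfaip3 (0.17), and Tnfrsf14 was nearest to the transcription factor Irf8 (0.14) and to Nfatc3 (0.17). The points of each profile share the 6 scaling genes.

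Markers of other cells were set beside these results. The T cell genes had summed scaled counts of 346 to 401 at P14 and 291 to 391 at P28; Cd5 rose (1.07), Lck fell (-1.01), and the 2 others tested did not pass. That list holds Cd3eap, which despite its symbol is no T cell receptor gene. Of 8 B cell genes 5 were tested, with sums of 2632 to 4720 and 3508 to 5024 that were mostly Blnk, which did not pass; Cd79a rose (0.76) and Cd79b fell (-1.20). Of 7 NK cell genes 4 were tested, with sums of 96.5 to 239 and 232 to 342. Among them Klrd1 rose from a mean of 15.9 to 107, Klrk1 (-1.35) and Gzma (-0.82) fell, and Prf1 did not pass. The sums were 2875 to 8706 and 4190 to 8272 for neutrophil genes (3 of 6 tested, mostly Csf3r, which did not pass, while Cxcr2 fell) and 299.5 to 506 and 382 to 522 for genes of monocytes and border macrophages (5 of 7, where Ccl24 rose and Itgal fell). Endothelial and mural genes (4 of 6 tested) summed to 3091 to 4880 at P14 and 6204 to 14670 at P28, led by Cd34; Cd34 and Pdgfrb rose and the endothelial cadherin Cdh5 fell (-0.63). Mbp and Cx3cl1, the 2 tested genes of oligodendrocytes and neurons, summed to 153 to 299 and 194 to 1100.0, and Mbp rose while Cx3cl1 fell. The part of other cells in the values of the TNF-family genes was not tested.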

How the data were processed

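Raw barcode counts per probe were deposited by the authors without scaling, for 545 genes, 14 reference genes, 8 negative and 6 positive controls in 12 samples. Per the labels' protocols, 2 ng of RNA were amplified with 5 rounds of PCR, so counts are not independent molecules. A second table holds scaled values (a score) that the authors derived from positive controls and reference genes, with the authors' ratio of means and p-value from the authors' t-test, as named per the file headers. In R 4.3.3, edgeR 4.0.16 fitted a quasi-likelihood model (glmQLFit, glmQLFTest) to raw counts, scaled by the geometric mean of Alas1, Gapdh, Oaz1, Polr1b, Sdha and Tbp, with age as the only term, on the 366 genes above background in at least 40% of samples, at an FDR of 0.05. Intervals are 95% intervals of the fit. Alternatives used DESeq2 1.42.0, limma 3.58.1 (pseudocount 1), other scalings and filters, and samples left out.

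The fit was tested on simulated data. The members, lists and tests were chosen with earlier results of these data known. Named genes are the 8 members, the partners in the table, up to 6 called genes per list, and the 2 nearest profiles per tested member, of which some are not reported here; other genes were named after their values were seen. Accessions tied 8 of the 8 members to RefSeq genes (GRCm38.p6), and 6 had a promoter window.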

Additional observations from a re-analysis of the deposited data

How the results depend on the processing

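Over 28 alternatives, 3 to 5 members were called, against 4, and 86 to 158 genes of the panel, against 112. Tnfsf10 (-1.41 to -0.58) and Ltbr (-1.17 to -0.33) kept direction and call in all 28. Scaled to positive controls alone, Tnf was at 0.14, Tnfsf12 at -0.23, Tnfrsf1b at -1.15 (past the threshold) and Tnfrsf14 at -0.72. Tnfsf12 kept its sign but lost its call with TMM (0.41), DESeq2 size factors (0.40), total counts (0.30) and without Polr1b (0.36). Tnfrsf14 was at -0.015 with total counts and -0.018 without Polr1b. Without P14 samples 4 and 5, Tnfrsf14 was at -0.17 and Tnfrsf1b at -0.58 (past the threshold). Those samples held the lowest P14 values of Tnfrsf1b, so this is no test of a fall. With each sample left out in turn, Tnfrsf14 ran from -0.023 (without P14 sample 5) to 0.23, and was -0.0081 without P14 sample 4; Tnf stayed within 0.80 to 1.02 and Tnfsf12 within 0.37 to 0.54, with their calls. The cause was not tested.

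Called partners numbered 1 with positive controls alone, 1 without a filter on low counts and 2 without P14 samples 4 and 5, against 0. Called relay genes numbered 7 without those samples, against 4, and called genes of the whole panel numbered 158 there, against 112. Called TNF-inducible genes numbered 2, against 4 with TMM, total counts, positive controls alone, 14 reference genes, the authors' factors, without Polr1b and with limma on the deposited values, and 5 without those samples. Scaling to positive controls before the 6 reference genes is by construction the same as the main scaling. Non-overlapping pairs numbered 5 to 7 over 14 alternatives, against 5. No paired analysis was possible because the 2 ages share no sample numbers. Background thresholds of 12.9 to 33.4 counts limit what can be said of Fas, Cd40, Fasl, Lta, Tnfsf14 and Btla.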
